A study of Mus musculus with 192 samples.

Results

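The receptors that guide leukocytes along chemical gradients were followed in mouse dendritic cells stimulated with microbial ligands. The set holds 8 genes chosen by name, Ccr1, Ccr2, Ccr7, Ccrl2, Cx3cr1, Cxcr4, Fpr1 and Fpr2, of the 23481 genes in the count table. Of these, 6 had enough counts to be tested, among 4720 tested genes, while Cx3cr1 and Cxcr4 did not. The cells were dendritic cells grown from the bone marrow of female C57BL/6J mice aged 6 to 8 weeks with the growth factor GM-CSF at 15 ng/ml, and all groups share this origin. They were left unstimulated (Ctrl) or received PAM, LPS (lipopolysaccharide of Gram-negative bacteria), HMW, Zymosan (a yeast cell wall preparation, described as depleted), SeV, cGAMP (the cyclic dinucleotide 3',3'-cGAMP) or CpGB for 6 hours. The 7 ligands were given alone (7 groups), in every pair (21 groups) and in every triplet (35 groups), with 3 libraries in each of the 64 groups and no genetic change in any. Such cultures are mixtures of dendritic and macrophage-like cells, and in a bulk measurement fewer cells of a type and less RNA per cell cannot be told apart. The labels do not say whether the 3 libraries of a group came from separate cultures or animals, so all p-values measure the spread between these libraries.

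Chemokine receptors are membrane receptors coupled to G proteins, and the chemokine gradient a cell follows depends on which of them it carries. Textbook accounts describe a switch in maturing dendritic cells: the receptors for inflammatory chemokines, Ccr1 and Ccr2, are lost, and Ccr7, the receptor for Ccl19 and Ccl21 that leads cells to the lymph node, is gained. Ccrl2 is an atypical receptor that binds chemerin and presents it without classical signalling. Fpr1 and Fpr2 sense formylated peptides released by bacteria and mitochondria, and Fpr2 also binds serum amyloid A. Cxcr4 is the receptor of Cxcl12, which holds cells in the bone marrow, and Cx3cr1 is the receptor of fractalkine on monocytes and macrophages.

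The upstream sequences of 4 members are printed because the results below turn on their responses. They are the 250 bases before the transcription start, 5' to 3' on the strand of the gene, from RefSeq on GRCm38.p6. Capitals mark a match to a motif. The windows lie at chr9:111057519-111057768 for Ccrl2 (minus strand, 1 of its 3 starts), chr9:123968693-123968942 for Ccr1 (minus strand), chr17:17883940-17884189 for Fpr1 (minus strand) and chr17:17887574-17887823 for Fpr2 (plus strand).
Ccrl2: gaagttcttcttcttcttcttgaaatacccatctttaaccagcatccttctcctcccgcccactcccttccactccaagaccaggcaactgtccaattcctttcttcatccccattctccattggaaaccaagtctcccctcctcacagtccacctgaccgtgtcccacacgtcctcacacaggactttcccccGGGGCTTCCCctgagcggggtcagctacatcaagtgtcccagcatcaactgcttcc
Ccr1: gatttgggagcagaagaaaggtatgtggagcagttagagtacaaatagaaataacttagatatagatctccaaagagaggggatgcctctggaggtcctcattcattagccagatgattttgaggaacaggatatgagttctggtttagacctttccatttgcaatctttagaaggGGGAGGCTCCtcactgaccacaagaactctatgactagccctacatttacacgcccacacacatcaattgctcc
Fpr1: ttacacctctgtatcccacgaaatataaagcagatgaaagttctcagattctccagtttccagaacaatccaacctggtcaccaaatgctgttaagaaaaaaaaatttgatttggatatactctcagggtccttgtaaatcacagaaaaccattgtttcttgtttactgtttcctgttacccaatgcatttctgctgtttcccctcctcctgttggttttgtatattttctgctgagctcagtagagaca
Fpr2: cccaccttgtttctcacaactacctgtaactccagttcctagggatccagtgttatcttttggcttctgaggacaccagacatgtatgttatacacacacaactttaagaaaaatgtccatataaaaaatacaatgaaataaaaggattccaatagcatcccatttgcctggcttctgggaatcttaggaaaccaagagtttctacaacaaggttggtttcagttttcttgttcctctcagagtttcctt
The motifs searched on both strands were NF-kappaB (by its usual 10-letter consensus), AP-1 (TGANTCA), ISRE (the interferon-stimulated response element, by its 10-letter consensus) and C/EBP (TTGCNNCAA). An NF-kappaB match lies 56 to 47 bases before the start of Ccrl2 and another 74 to 65 bases before the start of Ccr1. The windows of the other 2 starts of Ccrl2 hold no match to the 4 motifs. The Fpr1 and Fpr2 windows hold no match to the 4 motifs. Of 32851 windows of this length, 7.25% hold an NF-kappaB match, 6.75% an AP-1 match, 2.98% an ISRE match and 1.74% a C/EBP match, so a match is a description of the letters and no more. Fpr1 (chr17:17876471-17883939) and Fpr2 (chr17:17887824-17893952) are neighbours on opposite strands with 3884 bases between them. Ccr1 (chr9:123962126-123968692) lies 133225 bases from Ccr2 (chr9:124101918-124109140). How reads that match several related genes were assigned is not given in the sources used here, so values of Fpr1 against Fpr2 carry that uncertainty.

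Total counts ran from 46564 to 610234 per library with a median of 171616. Ctrl had the lowest mean of the 64 groups, 73431 ± 14389 (SD, n = 3), so comparisons with Ctrl are the least precise. Of the dendritic cell markers, Itgax, the integrin CD11c, stood in Ctrl at 421 CPM (counts scaled to a common library total). The summed level of the 10 markers lay between 6113 and 8438 CPM in the 64 groups. Most of it came from the MHC class II presentation genes Cd74, H2-Aa, H2-Ab1 and H2-Eb1. In Ctrl these stood at 774, 2126, 1525 and 1365 CPM, of a sum of 6219 CPM. Flt3 (95 counts in all libraries) and Zbtb46 (99 counts), which define conventional dendritic cells, were near 0. So were the other markers of the list, Dpp4 (103 counts), Clec10a (54 counts) and Cd209a (3 counts). The 9 measured macrophage markers summed to 3802 CPM in Ctrl and to between 1888 and 3858 CPM over the groups. The 8 markers of T, B and NK cells summed to at most 6.58 CPM in any group, with Cd3e at 0, and the 7 markers of mast cells and basophils to at most 25.3 CPM, with Tpsb2 at 0. The list for plasmacytoid dendritic cells summed to between 143 and 1336 CPM, mostly from Bst2 and Tcf4.

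With single ligands the tested receptors moved in opposite directions, those for inflammatory chemokines down and the others up. Ccr2 was called lower than Ctrl with 5 of the 7 ligands and Ccr1 with 3. Ccrl2 and Fpr2 were each called higher with 6, Fpr1 with 3 and Ccr7 with 1. A call needed an adjusted p under 0.05 in edgeR's quasi-likelihood test and a log2 fold change of at least 1 in size. Over all 4720 tested genes the same rule called 8.01% higher and 5.89% lower with PAM, 14.6% and 9.6% with LPS, 4.43% and 1.82% with Zymosan, 10.5% and 5.13% with SeV, 11.7% and 5.91% with cGAMP, and 10.8% and 6.27% with CpGB. With HMW the shares were 0.953% higher and 0.0212% lower, and none of the 6 receptors was called. DESeq2 also called 0 of these 6. Without the threshold of size, 2 of the 6 (Fpr1 and Ccr7) had an unadjusted p under 0.05 in edgeR, with log2 changes of 0.72 and 0.52. These comparisons share the 3 Ctrl libraries.

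**Figure D1:**
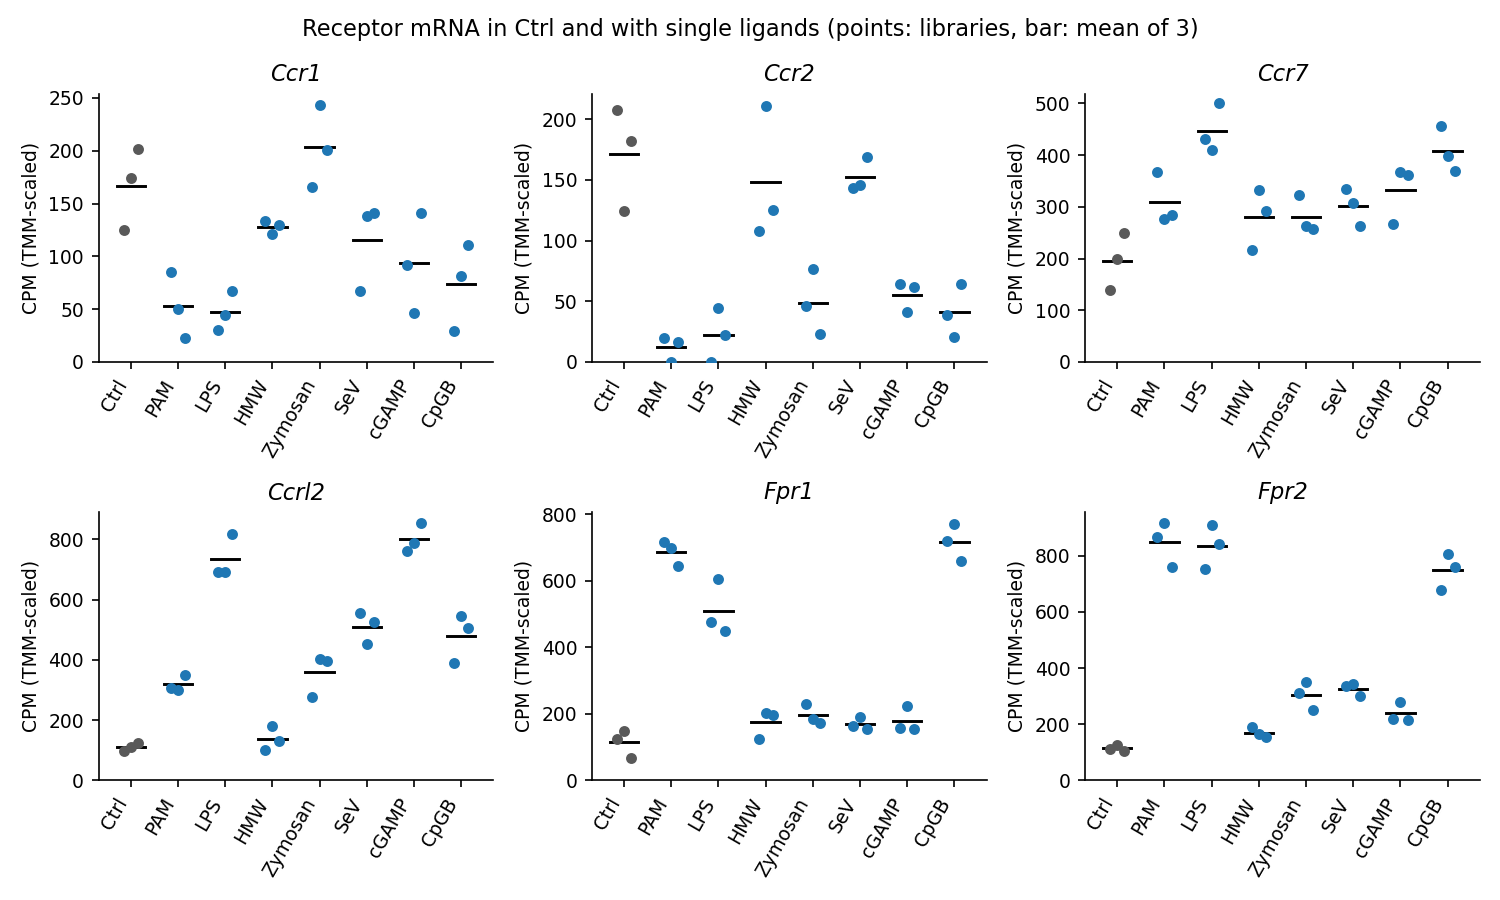
Levels in CPM of the 6 tested receptors (vertical axes, from 0) in Ctrl and with each of the 7 single ligands (horizontal axes); points are libraries and bars the mean of 3. Ccr1 and Ccr2 are lowest with PAM and LPS, Ccrl2 is highest with cGAMP and LPS, and Fpr1 and Fpr2 are highest with PAM, LPS and CpGB.

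Ccr1, a receptor for Ccl3 and Ccl5, was read at 125, 175 and 202 CPM in the 3 Ctrl libraries, at 85.3, 50.3 and 22.2 CPM with PAM, and at 29.8, 44.3 and 67.1 CPM with LPS. All 6 of these ligand libraries lay below all Ctrl libraries. The log2 change was -1.73 ± 0.39 (SE, adjusted p = 2.53e-04) with PAM and -1.76 ± 0.39 (adjusted p = 1.10e-04) with LPS. The PAM value was not called with all libraries thinned to the lowest total (-1.25, adjusted p = 0.0931) or without replicate 3 of all groups (-1.17, adjusted p = 0.106). CpGB libraries at 29.1, 81.7 and 111 CPM also lay below Ctrl, with a change of -1.05 ± 0.36 (adjusted p = 0.0233). That call was lost without Ctrl replicate 2 (adjusted p = 0.108) or 3 (0.258) and without CpGB replicate 1 (0.207) or 2 (0.0895). The cGAMP value was -0.88 (adjusted p = 0.0693), and it was called without cGAMP replicate 3 (-1.33, adjusted p = 0.0181) and with library size alone (-1.12, adjusted p = 0.0127). With Zymosan, Ccr1 was read at 166, 243 and 201 CPM, which overlaps Ctrl (log2 0.27 ± 0.31, adjusted p = 0.712). In the order of means, from Zymosan (203 CPM) over Ctrl (167 CPM) down to LPS (47.1 CPM), no pair of neighbours differed.

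Ccr2, the receptor for Ccl2, Ccl7 and Ccl12 that brings monocytes into inflamed tissue, was read at 208, 125 and 182 CPM in Ctrl. With PAM it stood at 19.7, 0 and 16.7 CPM and with LPS at 0, 44.3 and 22.4 CPM, below all Ctrl libraries. These are few reads, 44 counts over the Ctrl libraries, 6 over those with PAM and 13 over those with LPS. The log2 changes were -3.83 ± 0.58 (adjusted p = 1.41e-08) with PAM and -2.80 (adjusted p = 1.19e-06) with LPS. CpGB (-2.00), Zymosan (-1.87) and cGAMP (-1.64) were also called lower, with adjusted p from 2.67e-04 to 0.00313. Without Zymosan replicate 3 the Zymosan value was -1.38 (adjusted p = 0.0756), and with all libraries thinned to the lowest total the cGAMP value was -1.26 (adjusted p = 0.0671). With HMW (148 CPM) and SeV (153 CPM) Ccr2 overlapped Ctrl (172 CPM), with log2 changes of -0.16 and -0.15. Those 3 groups stood apart from the rest: the step from HMW to the next group, cGAMP at 55.5 CPM, was the only difference between neighbours (log2 1.48 ± 0.41, adjusted p = 0.00362).

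Ccr7, the lymph node homing receptor, had 139, 200 and 250 CPM in the Ctrl libraries and 432, 410 and 501 CPM with LPS, without overlap. The log2 change with LPS was 1.16 ± 0.23 (adjusted p = 7.11e-06). With all libraries thinned to the lowest total it was 0.56 (adjusted p = 0.157), and scaled by library size alone 0.86, and neither was called. CpGB (456, 398 and 369 CPM) gave 0.99 (adjusted p = 3.18e-04), just under the fold threshold, and cGAMP (266, 368 and 362 CPM) gave 0.74 (adjusted p = 0.0141). Without 1 library, CpGB passed the fold threshold in 5 of 6 cases, with values of up to 1.33 without Ctrl replicate 3, and cGAMP reached 1.06 without that library. The other 4 ligands gave log2 changes from 0.45 with Zymosan to 0.60 with PAM, none of which passed the test. No neighbours in the order of Ccr7 levels, from 448 CPM with LPS to 196 CPM in Ctrl, differed.

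Ccrl2 had 97.0, 112 and 125 CPM in Ctrl, 761, 789 and 853 CPM with cGAMP and 692, 693 and 819 CPM with LPS. The log2 changes were 2.82 ± 0.27 (adjusted p = 4.64e-19) with cGAMP and 2.70 (adjusted p = 5.89e-18) with LPS. SeV (511 CPM), CpGB (481 CPM), Zymosan (359 CPM) and PAM (320 CPM) followed with log2 changes of 2.17, 2.12, 1.70 and 1.50, all called. With all libraries thinned to the lowest total the PAM value was 0.79 (adjusted p = 0.169) and not called. With HMW it was read at 99.8, 179 and 130 CPM, overlapping Ctrl. Among neighbours in the order of means, LPS differed from SeV (adjusted p = 0.0281) and PAM from HMW (adjusted p = 2.86e-05), while the others did not differ. Between these, groups further apart also differed, PAM from SeV (log2 0.67, adjusted p = 0.00451) and from CpGB (0.62, adjusted p = 0.0246).

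The formyl peptide receptors responded most to PAM, LPS and CpGB. Fpr1 rose from 125, 150 and 67.2 CPM in Ctrl to 718, 771 and 659 CPM with CpGB, 715, 699 and 644 CPM with PAM and 476, 604 and 447 CPM with LPS. The log2 changes were 2.70 ± 0.23 (adjusted p = 2.27e-23), 2.64 (adjusted p = 1.73e-22) and 2.21 (adjusted p = 5.92e-16). LPS lay below PAM (adjusted p = 0.0167) and far above Zymosan, the next group (adjusted p = 4.26e-12). The other 4 ligands left Fpr1 between 170 and 196 CPM, with log2 changes of 0.61 to 0.80 that were not called. Without Ctrl replicate 2, those with Zymosan (1.10, adjusted p = 0.0360) and cGAMP (1.06, adjusted p = 0.0231) were.

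Fpr2 had 111, 125 and 106 CPM in Ctrl, 866, 915 and 761 CPM with PAM, 752, 909 and 841 CPM with LPS and 679, 807 and 761 CPM with CpGB. The log2 changes were 2.90 ± 0.23 (adjusted p = 5.14e-25) with PAM, 2.88 with LPS and 2.73 with CpGB, and these 3 did not differ between neighbours in the order. Unlike those of Fpr1, the Fpr2 changes were also called with SeV (334, 345 and 300 CPM, log2 1.51, adjusted p = 2.70e-06), Zymosan (1.41, adjusted p = 4.45e-05) and cGAMP (1.09, adjusted p = 0.00198), the last not called with DESeq2 (0.97), RLE factors (0.96), library size alone (0.85) or libraries thinned to the lowest total (0.68, adjusted p = 0.216). The difference between both genes in these 3 ligands was not tested. Among neighbours in the order of Fpr2 means only CpGB and SeV differed (adjusted p = 3.00e-10). Groups further apart below them also differed, such as HMW from SeV (log2 0.95, adjusted p = 1.69e-04) and from Zymosan (0.84, adjusted p = 0.00192).

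Markers of other cells moved with some of the same ligands. The monocyte list (3 of its 6 genes tested: Ms4a6c, Vcan and Ly6c2) summed to between 27.7 and 154 CPM in the Ctrl libraries and to 637 CPM with PAM, 1027 CPM with LPS and 883 CPM with CpGB, the ligands that raised Fpr1. It summed to 602 CPM with SeV, 503 CPM with cGAMP, 239 CPM with HMW and 196 CPM with Zymosan. The macrophage list summed to 3802 CPM in Ctrl, 3822 CPM with SeV and 3548 CPM with HMW, the groups with the highest Ccr2, and to 2335 CPM with PAM and 2337 CPM with LPS, those with the lowest Ccr1 and Ccr2. It summed to 3383 CPM with cGAMP, 2790 CPM with Zymosan and 2648 CPM with CpGB, where Ccr2 was also called lower. Their part in the receptor values was not tested. The neutrophil list, of cells that carry much Fpr1 and Fpr2, summed to between 826 and 1039 CPM in the Ctrl libraries and to between 705 and 1163 CPM over the 64 groups, and 0 of its 9 tested genes were called higher with PAM, LPS or CpGB by edgeR's test. At an unadjusted p under 0.05 edgeR gave 3 of the 27 tests higher at any size and 1 past the threshold of size. At an adjusted p under 0.05 DESeq2 called 0. Retnlg of that list was called lower with PAM and LPS, at 45.1 CPM in Ctrl, 3.70 CPM with PAM and 5.82 CPM with LPS.

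Cxcr4 and Cx3cr1 were at the limit of detection. Cxcr4 gave 115 counts, spread over 72 libraries, and 16 of the 64 groups stood at 0. Cx3cr1 gave 55 counts over 43 libraries, and 37 groups stood at 0. Neither was tested. In Ctrl, Cxcr4 had 3 counts and Cx3cr1 1 count over the 3 libraries. For Cx3cr1 the single-ligand groups with 0 counts were LPS, SeV and cGAMP, which allows levels of up to 5.57, 6.69 and 6.77 CPM (3 counts over the group, counting error only). Summed over all libraries of a kind, Cxcr4 stood at 5.99 CPM (95% exact Poisson interval 4.62 to 7.64) in the 66 libraries with Zymosan and at 2.31 CPM (1.72 to 3.05) in the 126 without. With SeV it stood at 1.48 CPM (0.848 to 2.41) against 4.57 CPM (3.71 to 5.56) without. Cx3cr1 stood at 0.639 CPM (0.257 to 1.32) with LPS and 2.23 CPM (1.65 to 2.96) without, and at 0.659 CPM (0.265 to 1.36) with cGAMP and 2.20 CPM (1.62 to 2.91) without. These ligands were picked because their intervals with and without did not overlap. For either gene the intervals overlapped with every other ligand. The intervals cover counting error only, not the spread between libraries, and no test across groups was made.

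In pairs and triplets every call against Ctrl had the direction seen with single ligands. Ccr2 was called lower in 20 of 21 pairs and 35 of 35 triplets, and Ccr1 in 11 pairs and 18 triplets. Ccrl2 and Fpr2 were called higher in all 21 pairs and all 35 triplets, Fpr1 in 17 and 31, and Ccr7 in 13 and 30. Over all tests of genes and groups, 13.7% were called higher and 8.44% lower in the pairs and 15.7% and 10.2% in the triplets. Ccr1 nevertheless had a mean above Ctrl in 20 of 63 groups, with log2 values of up to 0.88 in pairs and 0.70 in triplets that were not called. The median level of Ccr7 over groups was 196 CPM in Ctrl, 309 CPM with 1 ligand, 433 CPM with 2 and 488 CPM with 3. Ccrl2 went from 111 CPM to medians of 481, 948 and 1216 CPM. The medians of Fpr1 were 196, 507 and 481 CPM and those of Ccr2 48.7, 27.1 and 23.0 CPM.

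The effect of a ligand on cells that already receive others was taken as the mean over 21 backgrounds, the 6 other single ligands and 15 pairs of them, and does not use Ctrl. It was called at an adjusted p under 0.05 with a mean log2 difference of at least 0.5. Of 42 combinations of receptor and ligand, 12 were raised and 6 lowered. Zymosan raised Ccr1 and Ccrl2 and lowered Ccr2 and Fpr1. PAM raised Ccrl2, Fpr1 and Fpr2 and lowered Ccr1 and Ccr2. LPS raised Ccr7, Ccrl2 and Fpr2 and lowered Ccr2. cGAMP raised Ccrl2 and lowered Ccr2, CpGB raised Fpr1 and Fpr2, SeV raised Ccrl2, and none was called with HMW. On adding HMW, Ccrl2 passed the test below the threshold of size (mean log2 0.21 ± 0.04, adjusted p = 5.66e-07). Of the 6 receptors 4 had an unadjusted p under 0.05 in edgeR at any size with HMW, and DESeq2 called 0.

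Over all tested genes this rule called 6.27% raised and 5.38% lowered with PAM, 13.9% and 10.5% with LPS, and 8.54% and 4.05% with Zymosan. The shares were 6.59% and 1.84% with SeV, 13.7% and 9.96% with cGAMP, 5.15% and 4.3% with CpGB, and 0.254% and 0.106% with HMW.

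**Figure D2:**
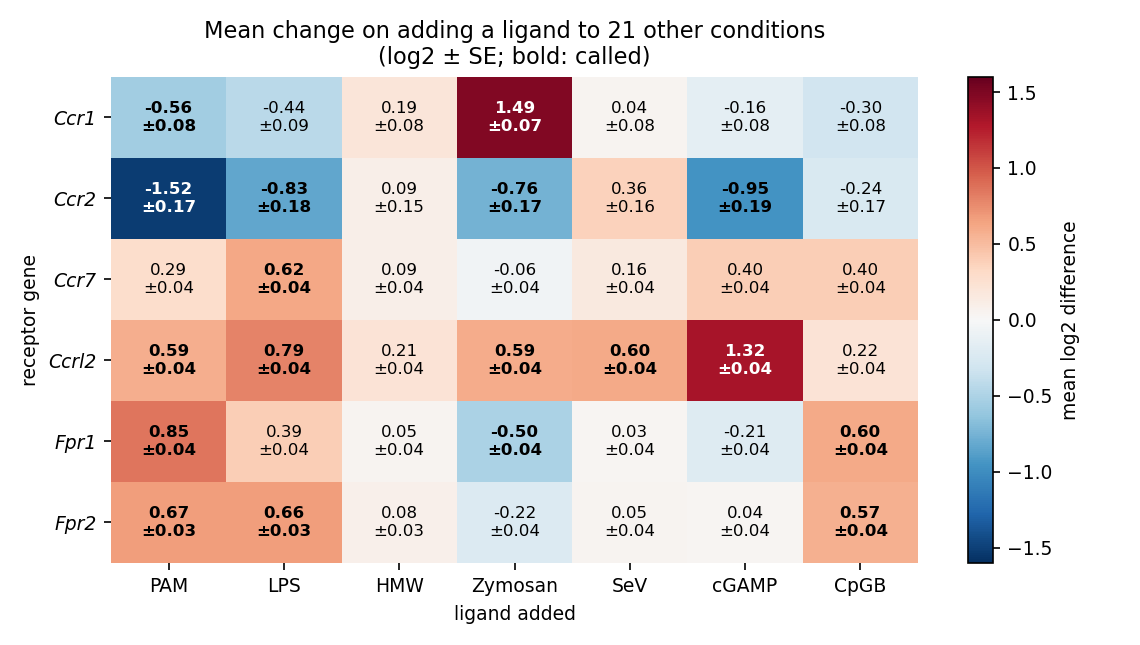
Mean log2 difference ± SE on adding each of the 7 ligands (columns) to 21 other conditions, for the 6 tested receptors (rows); colour gives the size and bold values are called. The strongest values are 1.49 for Ccr1 with Zymosan, 1.32 for Ccrl2 with cGAMP and -1.52 for Ccr2 with PAM.

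Ccr1 followed the presence of Zymosan. Its mean was higher with Zymosan than without in 21 of 21 backgrounds, and in 18 of them all 3 libraries with Zymosan lay above all 3 without. The ratio ran from 1.58 to 5.23 with a median of 2.97, and the mean log2 difference was 1.49 ± 0.07 (adjusted p = 3.09e-51). With cGAMP alone, Ccr1 was read at 91.7, 46.7 and 141 CPM, and with Zymosan and cGAMP at 310, 294 and 334 CPM, the highest group of the 64. With cGAMP and CpGB it was read at 42.4, 39.2 and 23.9 CPM and with Zymosan added to these at 191, 148 and 212 CPM. The libraries overlapped in the backgrounds SeV, PAM + LPS and SeV + cGAMP.

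Seen against Ctrl, Ccr1 was called lower in 32 of the 41 groups without Zymosan and in 0 of the 22 groups with it. With DESeq2 these counts were 34 and 0, and at an unadjusted p under 0.05 edgeR gave 36 and 0 at any size. Groups with Zymosan had means of 118 to 313 CPM (median 203 CPM), around the Ctrl mean of 167 CPM, and groups without had 34.9 to 198 CPM (median 58.6 CPM). The lowest group was PAM + LPS + CpGB at 45.9, 29.8 and 29.1 CPM. With Zymosan alone the libraries overlapped those of Ctrl (above), and PAM, LPS and CpGB alone lowered it. Zymosan in addition to these 3 gave 150 ± 45.9 CPM with PAM, 187 ± 19.5 CPM with LPS and 223 ± 6.55 CPM with CpGB (SD, n = 3).

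**Figure D3:**
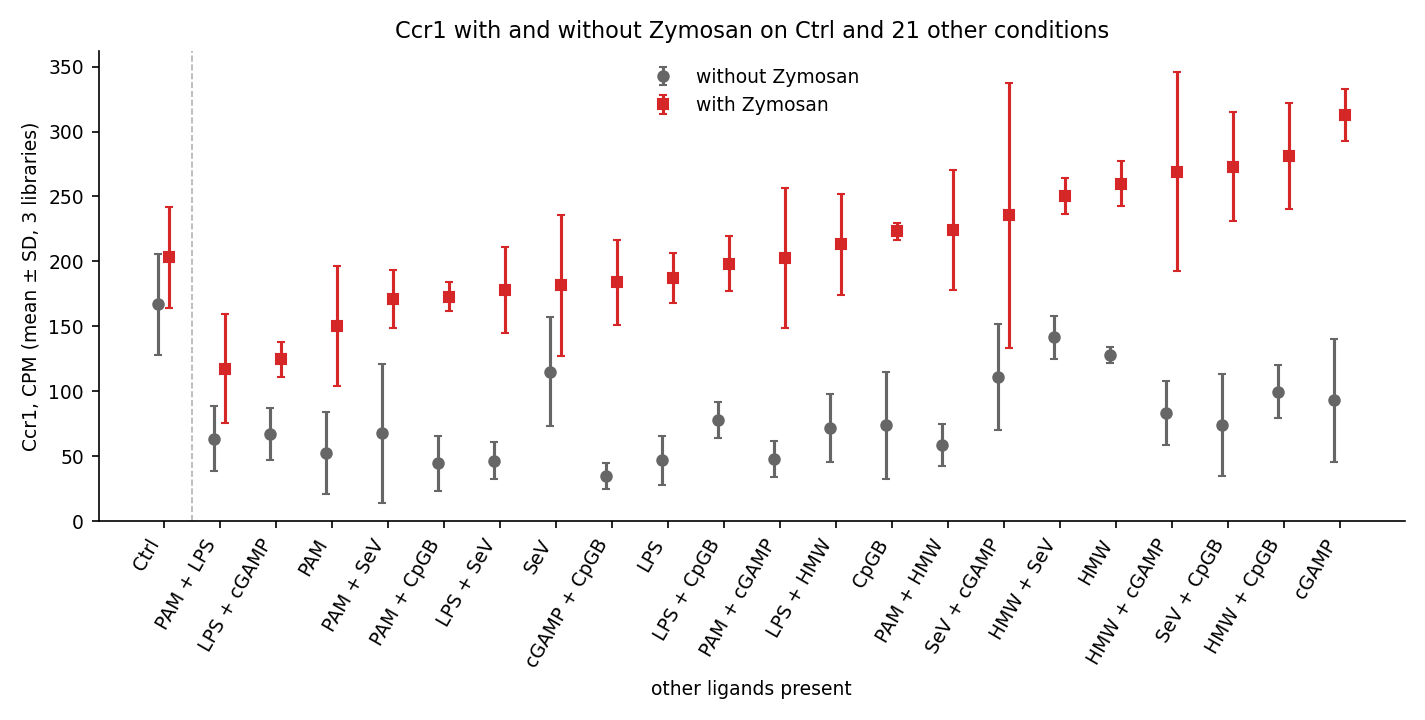
Ccr1 in CPM (vertical axis, mean ± SD of 3 libraries) without Zymosan (grey) and with it (red), for Ctrl, left of the dashed line, and 21 backgrounds of other ligands (horizontal axis). The red mean is above the grey mean in each of the 21 backgrounds.

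Adding PAM lowered Ccr1 by a mean log2 of -0.56 ± 0.08 (adjusted p = 1.29e-09), with a lower mean in 18 of 21 backgrounds. Adding LPS gave -0.44 (adjusted p = 2.63e-06), under the threshold of size. Ccr2 was lowered most by PAM, -1.52 ± 0.17 (adjusted p = 1.63e-15), with a lower mean in 20 of 21 backgrounds. In 9 of them all libraries with PAM were below all libraries without, at levels where many libraries hold few counts. cGAMP (-0.95), LPS (-0.83) and Zymosan (-0.76) also lowered Ccr2, so the calls of Ccr1 and Ccr2, which lie near each other on chromosome 9, had opposite directions with Zymosan. With all libraries thinned to the lowest total, Ccr2 was not called on adding LPS (-0.65) or Zymosan (-0.84), with an adjusted p of 1.00 for each. The lowest mean of Ccr2, 4.72 CPM with LPS + Zymosan + cGAMP, rests on 2 counts. SeV (0.36 ± 0.16, adjusted p = 0.0692), CpGB (-0.24) and HMW (0.09) did not pass the test. Over the 6 single-ligand backgrounds alone, CpGB gave -0.87 (adjusted p = 0.00843) and was called.

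Ccr7 was raised by LPS in 21 of 21 backgrounds, with all libraries above in 17 (ratio 1.09 to 2.05, mean log2 0.62 ± 0.04, adjusted p = 5.28e-39), a value of 0.499 when scaled by library size alone. Every one of the 22 groups with LPS was called higher than Ctrl, against 22 of 41 without. cGAMP and CpGB each gave a mean log2 of 0.40, which passed the test but not the threshold of size (0.54 with CpGB over the 6 single-ligand backgrounds, which was called), and cGAMP gave a higher mean in 21 of 21 backgrounds. The highest group combined these 3 ligands, LPS + cGAMP + CpGB, with 916, 617 and 835 CPM. Zymosan (-0.06) and HMW (0.09) did not pass the test.

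Ccrl2 was raised by cGAMP in 21 of 21 backgrounds and with all libraries above in 20, by ratios of 1.34 to 7.85 (median 2.32, mean log2 1.32 ± 0.04, adjusted p = 2.14e-93). LPS (0.79), SeV (0.60), Zymosan (0.59) and PAM (0.59, or 0.46 and not called with library size alone) raised it as well. CpGB gave 0.22 (adjusted p = 9.41e-08), under the threshold of size, and 0.76 over the 6 single-ligand backgrounds, which was called. Levels reached 2591, 2395 and 2160 CPM with PAM + HMW + cGAMP, a mean 21.4 times that of Ctrl. The groups with cGAMP had means of 801 to 2382 CPM and those without 136 to 1352 CPM, so the ranges overlapped. HMW alone left Ccrl2 within the range of Ctrl and above, and with PAM the mean was 583 ± 47.7 CPM against 320 ± 26.2 CPM with PAM alone (SD, n = 3), without overlap of the libraries.

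**Figure D4:**
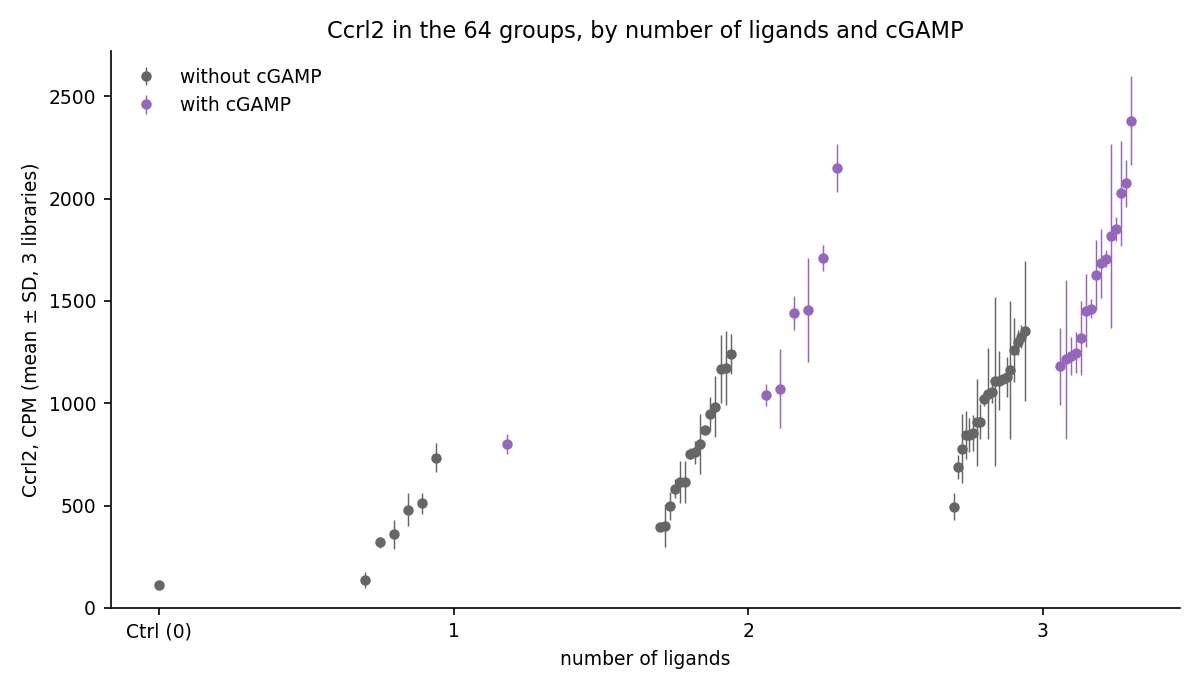
Ccrl2 in CPM (vertical axis, mean ± SD of 3 libraries) in the 64 groups by number of ligands (horizontal axis), with groups that hold cGAMP in a separate colour. The highest groups with 2 and with 3 ligands, at 2151 and 2382 CPM, hold cGAMP.

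Ccrl2 was also the only tested receptor with a pair called above both of its single ligands, by a log2 difference of at least 1 over each. PAM + cGAMP was read at 2065, 2283 and 2105 CPM, against 308, 302 and 350 CPM with PAM and 761, 789 and 853 CPM with cGAMP. The log2 differences were 2.75 and 1.42 (larger p of both, adjusted, 1.34e-14). LPS + cGAMP at 1710 ± 63.1 CPM (1.21 and 1.09, adjusted p = 1.95e-08) and PAM + SeV at 1168 ± 165 CPM (1.88 and 1.21, adjusted p = 1.32e-08) passed the same rule, and the other 5 tested receptors passed it in 0 pairs. Over all genes and pairs 0.353% were above both single ligands and 0.0504% below both, and no receptor was below both. At an unadjusted p under 0.05 and any size edgeR gave 2 of 126 tests below both and 9 of 105 above both outside Ccrl2, and DESeq2 called 0 for either. Scaled by library size alone, PAM + cGAMP was the only pair of Ccrl2 that passed. Below that size, Ccr7 passed the test above both single ligands with PAM + cGAMP (0.93 and 0.79, adjusted p = 0.00103). It also passed with PAM + SeV (0.64 and 0.70, adjusted p = 0.0236) and with LPS + CpGB, at 669 CPM (0.59 and 0.75, adjusted p = 0.0257). Fpr1 with PAM + SeV, at 908 CPM, did not pass the test (0.40 and 2.42, adjusted p = 0.132).

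An interaction is the part of the log2 change in a pair that both single-ligand changes do not add up to. Fpr2 had 13 of 21 pairs below that sum, Ccrl2 7 and Fpr1 6, and Ccr1 had 3 and Ccr2 1 above it, called where the adjusted p was under 0.05. The same call was made above it for 1.08% of all genes and pairs and below it for 3.5%. The strongest was Fpr2 with PAM + CpGB, -3.04 ± 0.29 (adjusted p = 6.85e-19): the pair had 658, 674 and 728 CPM, with a mean below that of either ligand alone. All 6 pairs called for Fpr1 were the pairs among PAM, LPS, CpGB and Zymosan, from -1.30 with LPS + Zymosan to -2.73 with LPS + CpGB. For Ccrl2 the strongest was LPS + CpGB (-2.09 ± 0.34, adjusted p = 1.46e-07), at 754 ± 27.8 CPM against 735 CPM with LPS alone. Ccr1 was above the sum with PAM + LPS (2.21), LPS + CpGB (1.71) and LPS + Zymosan (1.62): the first pair had 45.6, 53.4 and 92.2 CPM, overlapping the libraries of either ligand alone. Ccr7 had no called interaction, with values from -0.70 to 0.19. For Ccr7 1 of the 21 had an unadjusted p under 0.05 in edgeR, and DESeq2 called 0. Without Ctrl replicate 3 the count over all receptors was 24 in place of 30, and 7 were lost. These were Fpr1 with LPS + Zymosan (-1.02, adjusted p = 0.113) and PAM + Zymosan (-1.10, 0.0580), Ccr1 with LPS + Zymosan (1.38, 0.178) and LPS + CpGB (1.45, 0.107), and Fpr2 with cGAMP + CpGB (-1.07, 0.0830), SeV + cGAMP (-1.12, 0.0627) and Zymosan + SeV (-1.47, 0.0603). Zymosan + SeV was also lost without Ctrl replicate 1 (0.0755) and Ccr1 with LPS + Zymosan without Ctrl replicate 2 (0.0762). Ccr1 with PAM + LPS was not called with libraries thinned (1.97, adjusted p = 0.237) or without replicate 3 of all groups (1.55, adjusted p = 0.311). All interactions rest on the Ctrl libraries, which are shallow.

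The same comparison over all backgrounds sets the effect of a ligand on other ligands against its effect alone. Of 42 such differences 6 were higher and 16 lower, against 2.98% and 6.63% over all genes and ligands. Ccr1 and Ccr2 made up the 6 higher ones and Ccrl2, Fpr1 and Fpr2 the 16 lower ones, and in 21 of the 22 the change was smaller in size on top of other ligands than alone. The exception was Ccr1 with Zymosan, 0.27 alone and 1.49 on other ligands. The sign turned in 3 cases, Fpr1 with Zymosan, Fpr1 with cGAMP and Fpr2 with Zymosan. Each of these differences rests on the Ctrl libraries. Without Ctrl replicate 3 the difference of Ccr1 with Zymosan was 1.01 (adjusted p = 0.210) and without Ctrl replicate 2 it was 1.17 (adjusted p = 0.0635), so its call rests on single Ctrl libraries. The same holds for Ccr1 with PAM (adjusted p = 0.136 without Ctrl replicate 2, 0.308 without 3) and LPS (0.0516 and 0.145) and for Ccrl2 with Zymosan (0.0907 without Ctrl replicate 1, 0.0508 without 2). Without Ctrl replicate 3 the differences of Fpr1 with Zymosan (-0.998, adjusted p = 0.0683) and with cGAMP (-0.67, adjusted p = 0.273) were not called either.

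The levels of the formyl peptide receptors fell into classes by the presence of PAM, LPS or CpGB and of Zymosan. In the 34 groups with at least 1 of PAM, LPS and CpGB and without Zymosan, the mean of Fpr1 lay between 447 and 908 CPM (median 606 CPM). In the 15 groups with Zymosan besides, it lay between 268 and 497 CPM (median 406 CPM). The 14 groups with none of the 3 ligands lay between 145 and 232 CPM, with a median of 200 CPM without Zymosan and 196 CPM with it. For Fpr2 the corresponding ranges were 687 to 914 CPM, 483 to 733 CPM and 170 to 379 CPM. The classes with and without PAM, LPS or CpGB did not overlap for either gene.

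Adding Zymosan lowered Fpr1 by a mean log2 of -0.50 ± 0.04 (adjusted p = 1.04e-27), right at the threshold of size. Without replicate 2 of all groups it was -0.42, and over the 6 single-ligand backgrounds alone -0.23, and neither was called. All libraries with Zymosan lay below all without in 15 of 15 backgrounds that hold PAM, LPS or CpGB (ratio 0.449 to 0.830, median 0.664) and in 0 of the 6 others (ratio 0.670 to 1.29). With CpGB, Fpr1 went from 718, 771 and 659 CPM to 449, 369 and 412 CPM when Zymosan was added. For Fpr2 the same held in 12 of 15 and 0 of 6 backgrounds, with a median ratio of 0.737 in the former. In 2 of the 6 all Fpr2 libraries with Zymosan lay above all without (ratio over the 6 from 0.850 to 1.97, median 1.02), and the mean log2 difference over all backgrounds was -0.22 ± 0.04, under the threshold of size. Of the 3 tested genes of the monocyte list 1, Ms4a6c, was also called lower on adding Zymosan, and its part in the values of Fpr1 was not tested. The neutrophil list had 0 of 9 tested genes called in either direction on adding Zymosan by edgeR or DESeq2, and 4 of 9 with an unadjusted p under 0.05 in edgeR at any size.

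**Figure D5:**
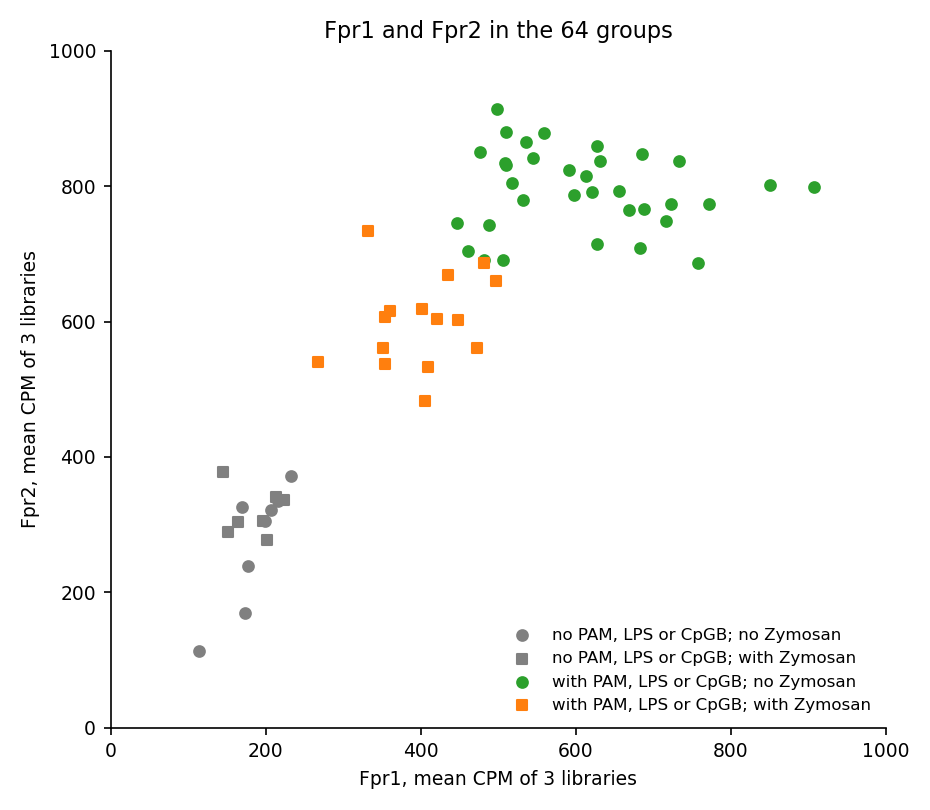
Mean CPM of 3 libraries of Fpr1 (horizontal axis) and Fpr2 (vertical axis) in each of the 64 groups, marked by whether PAM, LPS or CpGB and whether Zymosan were present. Groups with PAM, LPS or CpGB lie apart from those without, and among them the groups with Zymosan tend to lie lower on both axes, with ranges that overlap.

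Both Fpr genes followed each other over the 64 groups with Pearson's r = 0.91 for log2 CPM, the closest pair among the members. On adding LPS to other ligands the mean log2 difference was 0.66 ± 0.03 (adjusted p = 9.00e-47) for Fpr2 and 0.39 ± 0.04 for Fpr1, the latter under the threshold of size. Over the 6 single-ligand backgrounds alone these values were 1.05 and 0.81, both called, and the difference between both genes was not tested. The Fpr1 mean over 21 backgrounds averages opposite directions. With LPS, Fpr1 had a higher mean in 10 backgrounds and a lower one in 11 (ratio 0.673 to 3.01, median 0.975). All libraries with LPS lay above all without in 10 of them and below in 7. Fpr2 had a higher mean in 18 and a lower one in 3. Ccr1 ran against Fpr1 (r = -0.67) and Ccr7 with Fpr2 (r = 0.76) and Ccrl2 (r = 0.67). These are descriptions over groups that share ligands, so the 64 points are not independent.

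The tested genes most like each receptor over the 64 groups were Pkm, a glycolytic enzyme (r = 0.91), Vegfa, an angiogenic growth factor (0.90), and Wfs1 (0.89) for Ccr1. They were Mbnl1 (0.82), the inflammasome adaptor gene Pycard (0.78) and Lrrc33 (0.78) for Ccr2. For Ccr7 they included the costimulatory receptor Cd40 (0.92) and the chemokine Ccl5 (0.89), and for Ccrl2 they included Cd274, which encodes PD-L1 (0.91), and Tnfsf15 (0.91). Cd38, an ectoenzyme that uses NAD, came first for both Fpr1 (0.94) and Fpr2 (0.95), followed by Cpd and Itgal for Fpr1 and by Sod2 and Abracl for Fpr2.

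Related genes were compared in the same way, on adding a ligand, where the median mean log2 difference of all tested genes lay between -0.04 with cGAMP and 0.02 with HMW. Of 18 other chemokine receptors 3 were tested, among them Cxcr2 and Xcr1. Xcr1, the receptor for Xcl1, was raised by Zymosan (0.63) and cGAMP (0.58), and Cxcr2 was called with none of the 7 ligands. Of 14 receptors for other attractants 6 were tested. Zymosan raised 1 and lowered 2 of these, PAM raised 1 and lowered 1, LPS raised 1 and lowered 3, cGAMP raised 3 and lowered 1, SeV raised 1 and CpGB lowered 2, with medians from -0.30 with LPS to 0.31 with cGAMP. C5ar1, the receptor for complement C5a, was raised by cGAMP (0.85), the largest of those 3, and C3ar1, for complement C3a, was lowered by PAM (-0.89).

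The next list held the ligands of the 8 receptors. Of 17 genes 11 were tested, and adding LPS or CpGB raised 7 of them each, cGAMP 6, PAM and SeV 4 each, Zymosan 3 and HMW 0. cGAMP, PAM and Zymosan lowered 1 each. Serum amyloid A3 (Saa3), of the family bound by Fpr2, was raised by PAM (mean log2 2.20) and CpGB (1.57), and Ccl3, a ligand of Ccr1, by 1.55 and 1.49. Ccl2, a ligand of Ccr2, was raised by cGAMP (2.11), and Ccl5 by LPS (1.74). Zymosan raised Mif, a cytokine that binds Cxcr4, by 1.35. The median of the 11 genes ran from 0.05 with HMW to 1.24 with cGAMP.

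Of 21 genes that pass on or switch off receptor signals 15 were tested. Rgs2, which shortens G protein signals, was lowered by PAM (-1.68), CpGB (-0.92) and Zymosan (-0.70), and Rgs1, of the same family, was raised by cGAMP (1.32). In all, LPS and cGAMP raised 2 and lowered 6 each, PAM 2 and 3, SeV 3 and 2, CpGB 2 and 2, Zymosan 0 and 2, and HMW none, with medians from -0.24 with LPS to -0.03 with HMW. Of 15 genes of mature migratory dendritic cells 13 were tested, and LPS raised 8, PAM and CpGB 5 each, cGAMP and SeV 4 each, and Zymosan and HMW 0. CpGB and cGAMP lowered 1 each. With LPS the largest rises in that list were those of Cd40 (2.03) and of Ccl17, a chemokine of mature dendritic cells (1.21). The median of the list was 0.79 with LPS and 0.04 with Zymosan.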

How the data were processed

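RNA of wells of dendritic cells was reverse transcribed with barcoded primers and pooled, per the labels' protocols, and the authors deposited 1 table of UMI counts (molecules told apart by random tags) for 23481 genes in 3 libraries of each of 64 groups. Alignment was with BWA 0.7.15 to mm10, per the submitters' processing notes. How tags were collapsed is not given in the sources used here. All columns matched a label, and 0 were left unmapped.

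From the counts, genes passing filterByExpr by group (4720) were fitted with edgeR 4.0.16 (R 4.3.3, limma 3.58.1), with TMM factors, 1 coefficient for each of the 64 groups and 128 residual degrees of freedom. The quasi-likelihood test was used, with Benjamini-Hochberg adjustment over all tested genes of a comparison. Levels are CPM on TMM-scaled totals, and log2 CPM for correlations used a prior count of 2. Promoter windows and gene positions come from RefSeq on GRCm38.p6, to which 21705 symbols matched. The scripts were tested on simulated data.

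The receptors and gene lists were chosen with earlier results of these data known, and the comparison of a ligand's effect alone and on other ligands was chosen after seeing them. The genes named besides the receptors are the 3 most correlated with each and, in a list, at most the 2 largest and the smallest called difference. A few genes that this rule names are not reported here. Alternatives were RLE factors, library size alone, no filter, DESeq2 1.42.0, thinning to the lowest total, a replicate block, libraries left out, single-ligand groups alone and fewer backgrounds. Replicate numbers were checked for pairing by the deviations of libraries from their group means in log2 CPM. Those of same-numbered libraries had a mean correlation of 0.0083 (lowest -0.293), against -0.0041 for different numbers. No pairing was seen in these values, and the samples were treated as unpaired. The check does not cover library totals, and the labels do not say what a number marks, so a batch shared by a number stays possible. No 2 libraries held identical values.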

Additional observations from a re-analysis of the deposited data

Results flagged for a closer look

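In 22 of 42 combinations of receptor and ligand, the effect of the ligand on cells that also received others differed from its effect alone against Ctrl (edgeR's quasi-likelihood test of the difference, adjusted p under 0.05). The values below are the log2 effect on other ligands, averaged over 21 backgrounds, minus the log2 effect alone. All of them use the same 3 Ctrl libraries and are not independent of each other, and the comparison was chosen after seeing the data.

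For the receptors of inflammatory chemokines the differences were positive. Ccr1 gave 1.17 with PAM (adjusted p = 0.0470), 1.33 with LPS (0.0110) and 1.22 with Zymosan (0.0118). Each of these 3 was lost without Ctrl replicate 2 (adjusted p = 0.136, 0.0516 and 0.0635) and without Ctrl replicate 3 (0.308, 0.145 and 0.210). Ccr2 gave 2.32 with PAM (0.00974), 1.97 with LPS (0.00500) and 1.76 with CpGB (0.00485). All 3 of Ccr2 lost their call with libraries thinned to the lowest total, where the values were 2.87, 2.93 and 2.00 (adjusted p = 1.00 for each), and without replicate 1 of all groups (0.0628, 0.178 and 0.0694, with the LPS value at 1.30).

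For Ccrl2, Fpr1 and Fpr2 they were negative. Ccrl2 gave -1.91 with LPS, -1.10 with Zymosan, -1.57 with SeV, -1.50 with cGAMP and -1.90 with CpGB, with adjusted p of up to 0.0164. The value with Zymosan was lost without Ctrl replicate 1 (adjusted p = 0.0907) or 2 (0.0508). Fpr1 gave -1.79 with PAM, -1.82 with LPS, -1.30 with Zymosan, -0.92 with cGAMP and -2.10 with CpGB, with adjusted p of up to 0.0241. Those with Zymosan (0.0683) and cGAMP (0.273) were lost without Ctrl replicate 3, and that with cGAMP also with DESeq2 (-0.84, adjusted p = 0.0935), library size alone (-0.81, 0.0562) and libraries thinned (-0.60, 0.412). Fpr2 gave -2.23 with PAM, -2.22 with LPS, -1.63 with Zymosan, -1.46 with SeV, -1.05 with cGAMP and -2.16 with CpGB, with adjusted p of up to 0.00677. The cGAMP value was not called with libraries thinned (-0.79, adjusted p = 0.222) or without replicate 2 of all groups (-1.002, adjusted p = 0.0712). Ccr7 and HMW gave none: for Ccr7 3 of 7 differences had an unadjusted p under 0.05 in edgeR, and DESeq2 called 0. Without Ctrl replicate 3, Ccr7 was called with LPS (adjusted p = 0.0409) and CpGB (0.0253).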

How the results depend on the processing

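Counts against Ctrl are of calls of a receptor in a group, for 6 tested receptors in 7 single-ligand groups, 21 pairs and 35 triplets. Over the alternatives other than leaving out libraries, calls higher than Ctrl numbered 13 to 17 with single ligands (16 as reported). They numbered 62 to 78 in pairs (72) and 114 to 137 in triplets (131). Calls lower than Ctrl numbered 6 to 9 (8), 26 to 32 (31) and 52 to 54 (53). On adding a ligand 10 to 15 combinations of receptor and ligand were raised (12) and 4 to 7 lowered (6). Pairs above both single ligands numbered 1 with library size alone and 5 when thinned (3), all of Ccrl2, and pairs below both 0 throughout. Interactions numbered 18 when thinned (30), and the differences of effects between 15 and 22 (22). With libraries left out the same counts ran, in this order, over 16 to 19, 71 to 77, 126 to 135, 5 to 8 (5 without replicate 3 of all groups), 23 to 31, 48 to 54, 12, 5 to 6, 4 to 5, 0, 22 to 32 and 14 to 21 (14 without replicate 2 or 3 of all groups). These fits leave out 64 libraries or 1 Ctrl library. With the replicate block all counts stayed as reported (16, 72, 131, 8, 31, 53, 12, 6, 3, 0, 30 and 22), and 0 of 156 single values changed their call. Other scalings moved the median of all genes against Ctrl by -0.16 (RLE factors), -0.36 (library size alone) and -0.16 (DESeq2), and on adding a ligand by at most 0.07 in size. With library size alone, whose values include that shift, Ccr7 with LPS (0.86) and Fpr2 with cGAMP (0.85) missed the threshold of size.

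Of the single log2 values, 629 of 672 kept call and direction against Ctrl, 393 of 420 on adding a ligand, 454 of 504 for differences of effects and 318 of 360 for interactions. None of the values that changed sign was called as reported. With libraries left out, the log2 values against Ctrl of Ccr2 ran from -0.66 to 0.17 with HMW and from -0.25 to 0.15 with SeV, those on adding HMW from -0.041 to 0.26 for Ccr2 and from -0.021 to 0.092 for Fpr1, and those on adding SeV from -0.050 to 0.090 for Ccr1 and from -0.0054 to 0.059 for Fpr1. The differences of effects with HMW ran from -0.22 to 0.92 for Ccr2 and from -0.28 to 0.095 for Ccrl2. With no filter Ccr2 turned to 0.0015 with HMW and 0.069 with SeV. When thinned, Ccrl2 with HMW turned to -0.26 against Ctrl, Fpr1 to -0.081 on adding HMW, Ccr1 to -0.19, Fpr1 to -0.050 and Fpr2 to -0.042 on adding SeV, Fpr2 to -0.11 on adding cGAMP, and the differences to 0.063 for Ccr7 with LPS and 0.37 for Ccrl2 with HMW. With library size alone, Ccr1 turned to -0.031, Fpr1 to -0.037 and Fpr2 to -0.019 on adding SeV and Fpr2 to -0.095 on adding cGAMP. Over 6 backgrounds Ccr2 turned to -0.14 on adding HMW and Ccr7 to 0.032 on adding Zymosan. The cause was not tested. Ccr2, Cxcr4 and Cx3cr1 are limited by depth: thinned to the lowest total, Ccr2 was not called on adding LPS (-0.65, adjusted p = 1.00) or Zymosan (-0.84, adjusted p = 1.00).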
